A study of Mus musculus with 6 samples.

Results

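BMP and TGF-beta signalling was followed through 43 genes: the ligands, their receptors, the SMAD proteins that carry the signal to the nucleus, and the proteins that store, block or end it. The list is one of named pathway members. Its rule uses no difference between the groups, but the members were chosen with earlier results of these data known. Each was represented by the probe set annotated to that symbol alone, and where several qualified by the one with the highest mean over the 6 arrays. All 43 were found among the 22180 genes tested, and each had 1 such probe set. RNA came from whole mouse cerebellum at postnatal day 7. In the wild-type group (3 arrays) the mice carried Math1Cre with an unaltered Crebbp gene; the knockout mice (3 arrays) were Math1Cre::CrebbpFl/Fl, so Math1Cre was present in both groups. Math1, also called Atoh1, is active in granule neuron precursors, so Cre acts in that lineage, while the RNA also holds Purkinje cells, interneurons, glia, vessels and any meninges or choroid plexus left on the tissue. In such bulk RNA, fewer cells of a type and less RNA per cell cannot be told apart. The labels do not say whether each array came from its own animal, so the p-values reflect spread among these 6 arrays, and that spread may be technical.

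Ligands of the family bind pairs of type I and type II receptor kinases. BMP receptors phosphorylate SMAD1, SMAD5 and SMAD9, TGF-beta and activin receptors phosphorylate SMAD2 and SMAD3, and both sets enter the nucleus with SMAD4, where CREBBP is among the coactivators that activated SMADs can recruit. In the cerebellum, BMPs from the roof plate help to specify granule neuron precursors in the embryo, and BMP signals later oppose the proliferation that Sonic hedgehog drives in these precursors. TGF-beta ligands are secreted in a latent form, held in the matrix by latent TGF-beta binding proteins.

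The values are log2 expression levels, with array medians of 7.25 to 7.29. Crebbp, which encodes the targeted coactivator, gave wild-type values of 11.96, 11.99 and 11.90 and knockout values of 11.46, 11.42 and 11.32, so each array lay on the side that its label gives (difference -0.56, SE 0.05, limma adjusted p = 0.000354). The sources used here do not say whether this probe set lies in the floxed stretch. The choroid plexus gene Ttr stood above 10 on wild-type replicate 1 (12.30) and knockout replicates 1 and 3 (13.77 and 13.92), and read 8.08, 8.91 and 9.19 on wild-type replicates 2 and 3 and knockout replicate 2. The mean of 10 measured choroid plexus markers, of 13 listed, ran from 7.03 to 7.70 in wild type and from 7.13 to 9.29 in knockout. Their median difference was 0.94, with wide spread within the knockout group, and 0 of the 10 passed the threshold. Ogn, a gene of meningeal fibroblasts, read 8.07, 8.33 and 8.38 in wild type and 8.58, 8.74 and 9.53 in knockout (difference 0.69, adjusted p = 0.0762). The mean of 13 meningeal markers ran from 8.58 to 8.71 in wild type and from 8.76 to 9.35 in knockout, with knockout replicate 3 highest. Their median difference was 0.29, with 0 of 13 past the threshold. No marker was at 0, and no detection call came with the values. Markers of endothelium, mural cells and microglia gave 0 calls, with mean levels of 8.95 to 9.02, 9.01 to 9.08 and 8.25 to 8.27 in wild type and 8.88 to 8.97, 8.97 to 9.04 and 8.16 to 8.38 in knockout. The 8 markers of granule precursors and granule neurons, which cerebellum should hold, were present at mean levels of 10.52 to 10.68 in wild type and 10.18 to 10.34 in knockout. Of these, Zic1, Neurod1, Pax6 and Cntn2 fell and Atoh1 rose (0.52), with a median difference of -0.29 over the 8. The part of this lineage, the choroid plexus and the meninges in the differences below was not tested beyond the fits named beside them. The fit without the 3 arrays with Ttr above 10 holds wild-type replicates 2 and 3 and knockout replicate 2 alone, so its differences are given as values, with no p. The Ogn values of the 2 groups do not overlap. A fit with Ogn as a covariate therefore cannot fully separate the part of Ogn from that of the group.

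**Figure D1:**
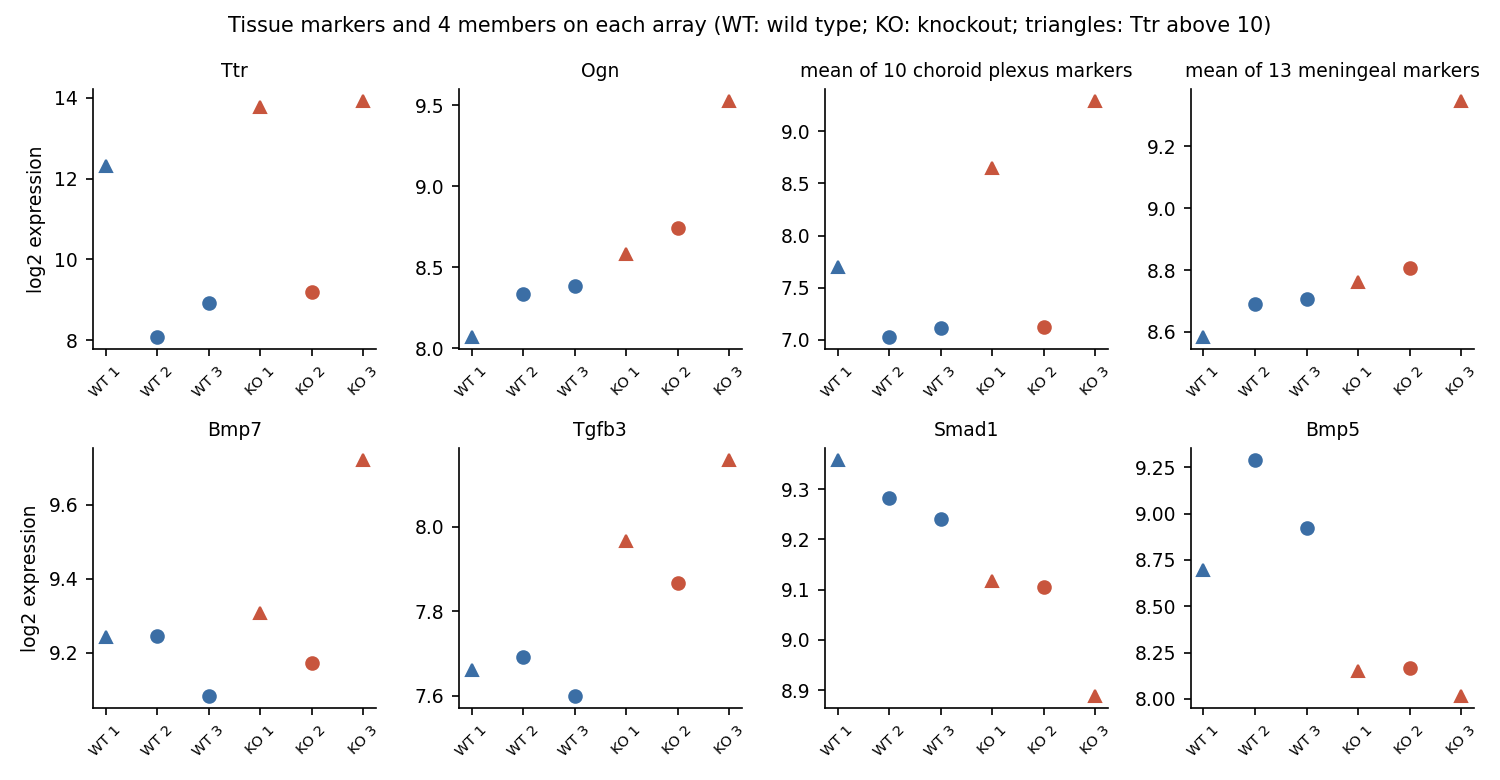
Log2 expression on each of the 6 arrays for Ttr, Ogn, the mean of 10 choroid plexus markers, the mean of 13 meningeal markers, and 4 pathway genes (blue, wild type; red, knockout; triangles, the 3 arrays with Ttr above 10). Knockout replicate 3 carried the highest Ttr (13.92) and Ogn (9.53) and also the highest Bmp7 (9.72) and Tgfb3 (8.16), while Bmp5 was lowest of the wild-type arrays on the one with Ttr above 10 (8.69) and read 8.01 to 8.17 on the knockout arrays.

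Of the 43 genes, 3 rose in the knockout, 3 fell and 37 did not pass an adjusted p of 0.05. Differences are log2 values, knockout less wild type, and "rose" and "fell" are used only of genes past that threshold. Bmp5, Ltbp2 and Tgfb2 fell, and Tgfb3, Ltbp3 and Bmpr1b rose. The 6 calls were 13.95% of the 43 genes, against 6.67% of all genes tested, of which 2.72% rose and 3.94% fell. In 17 of the 43 the wild-type and knockout values did not overlap (8 lower and 9 higher in knockout), which is 39.5%, against 25% of all genes. The list was chosen with earlier results of these data known, so neither share can be read as an unbiased excess. The median difference was -0.04, against -0.003 over all genes, and the median size of the difference regardless of sign was 0.10, against 0.09. Most differences were small: 42 of the 43 were under 1.5-fold, the exception being Bmp5. The median spread within a group was 0.08 (SD), against 0.10 over all genes, and the half-width of the 95% intervals of the differences ran from 0.09 to 0.28.

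**Figure D2:**
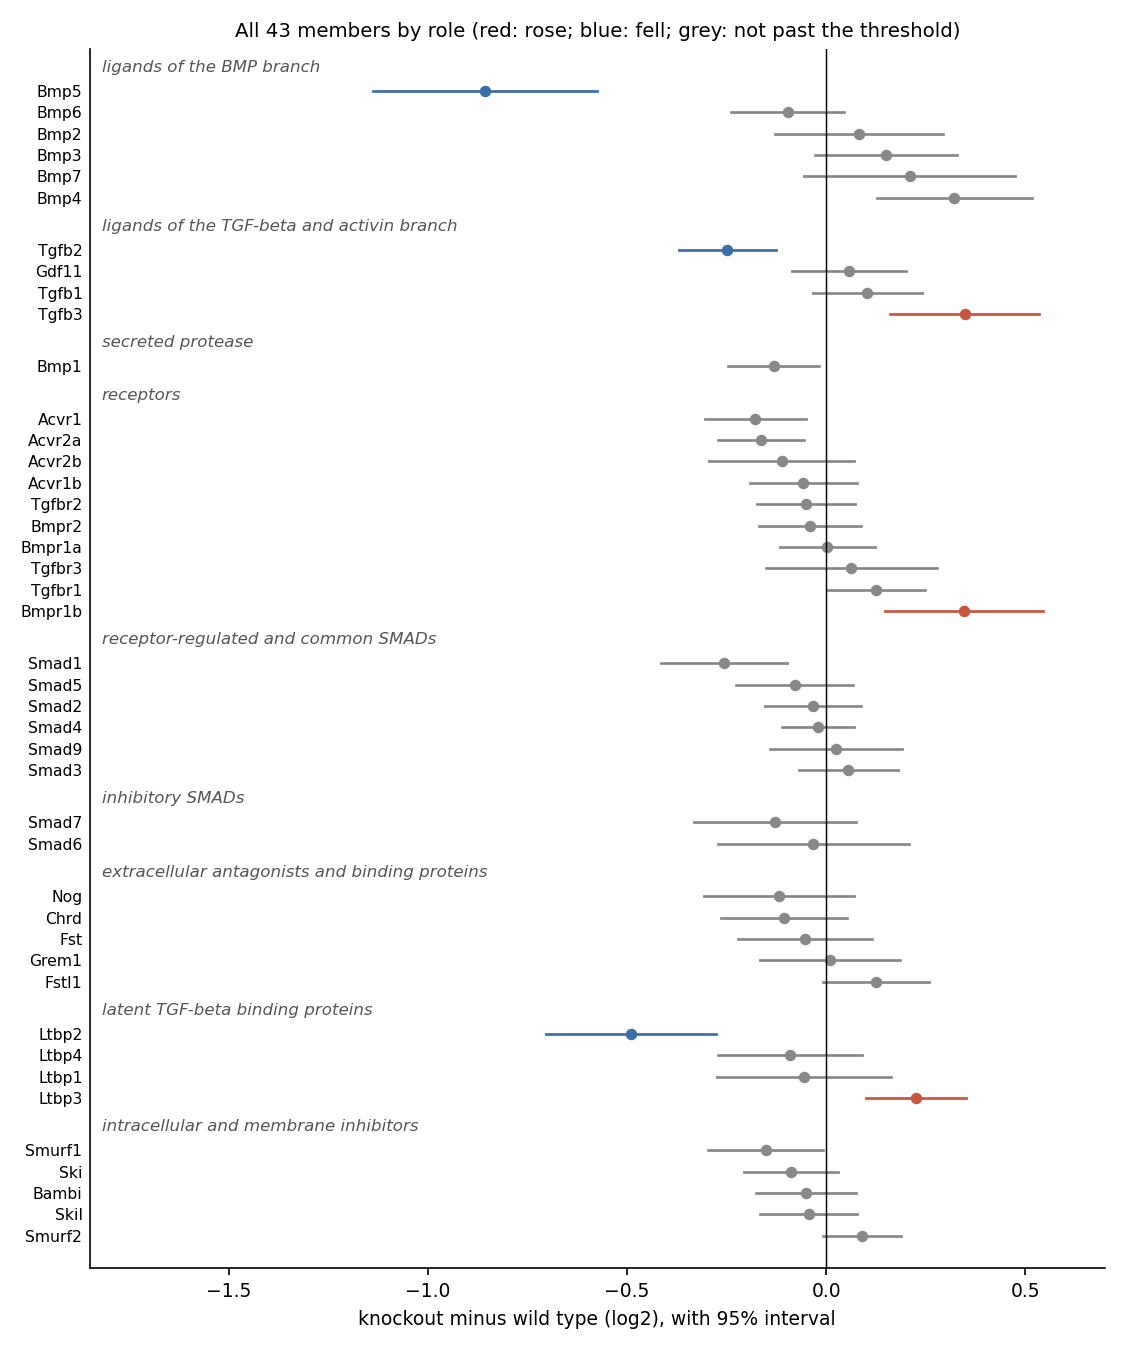
Difference between knockout and wild type (log2) for each of the 43 genes, grouped by role, with its 95% interval from the limma fit (red, rose; blue, fell; grey, not past the threshold; n = 3 arrays per group). Bmp5 at -0.86 lies far to the left, and the other 5 calls lie between -0.49 and 0.35.

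Among the 6 BMP-branch ligands, Bmp5 fell, 0 rose and 5 did not pass. Bmp5 encodes a secreted BMP that signals through the receptors for SMAD1 and SMAD5. Its values were 8.69, 9.29 and 8.92 in wild type and 8.15, 8.17 and 8.01 in knockout. The groups were far apart, with the lowest wild-type array above the highest knockout array, and wild type was the more variable group. The difference was -0.86 (SE 0.13, 95% interval -1.14 to -0.58, adjusted p = 0.00423), a 1.81-fold lower level. The call held whichever array was left out (differences of -0.995 to -0.70, adjusted p up to 0.0155). The difference was -0.70 with each array's Ttr value as a covariate (adjusted p = 0.0223), the largest move of any of the 43 genes in that fit, and -0.94 between the single knockout array and the 2 wild-type arrays with Ttr below 10. With each array's Ogn value as a covariate the difference was similar, -0.84, but its error was larger and it did not pass (adjusted p = 0.0976).

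The other 5 BMP ligands did not pass, with 4 differences above 0 and that of Bmp6 below. Bmp4, a BMP ligand that acts in many developing tissues, read 8.62, 8.77 and 8.91 in wild type and 9.02, 9.24 and 9.005 in knockout, with no overlap (difference 0.32, SE 0.09, adjusted p = 0.0585). It came closest of all 37 to the threshold. Bmp4 passed with Ttr as a covariate (0.45, adjusted p = 0.0180) but not with Ogn (0.33, adjusted p = 0.358). It also passed without dim genes (0.0492), with array weights (0.0398) and with the replicate block (0.0422). It missed with either other prior, median centring, repeated quantile normalization and gene means over probe sets (0.0532 to 0.144). With single arrays left out it passed in 1 of 6 fits, that without wild-type replicate 3 (0.39, adjusted p = 0.0400). In the others its adjusted p ran up to 0.213. Bmp3, which encodes a ligand known to oppose other BMPs, gave 7.08, 7.18 and 7.16 against 7.27, 7.21 and 7.39, again without overlap (difference 0.15, adjusted p = 0.344). Its difference was 0.10 without knockout replicate 3, 0.04 without the arrays with Ttr above 10 and 0.03 with Ogn as a covariate. Bmp7 is singled out here after its values were seen. Its wild-type arrays gave 9.24, 9.25 and 9.08 and its knockout arrays 9.31, 9.17 and 9.72, so 1 array, the one with the highest Ttr and Ogn, stood above all others and the groups overlapped. The Bmp7 difference of 0.21 (SE 0.12, adjusted p = 0.380) was 0.05 without knockout replicate 3 and -0.09 with Ogn as a covariate. Bmp2 (difference 0.08, 95% interval -0.13 to 0.29) and Bmp6 (-0.10, interval -0.24 to 0.04) had overlapping groups. Bmp6 read -0.16 without knockout replicate 3 and -0.24 with Ogn as a covariate, and Bmp2 read 0.24 without the arrays with Ttr above 10 and 0.16 with Ogn as a covariate; none of these passed where tested. Bmp1, which despite its name encodes a secreted metalloprotease that cleaves procollagens and the BMP antagonist chordin, read 10.24, 10.35 and 10.23 in wild type and 10.10, 10.14 and 10.19 in knockout. Those groups lay side by side without overlap, with means 0.13 apart (adjusted p = 0.176).

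The ligands of the TGF-beta and activin branch moved in opposite directions. Tgfb2 fell, Tgfb3 rose, and Tgfb1 and Gdf11 did not pass. Tgfb2 read 9.64, 9.75 and 9.65 in wild type and 9.46, 9.36 and 9.47 in knockout. Both groups were tight and separate (difference -0.25, SE 0.05, 95% interval -0.37 to -0.13, adjusted p = 0.0270), a 1.19-fold lower level. For Tgfb3 the wild-type arrays gave 7.66, 7.69 and 7.60 and the knockout arrays 7.97, 7.87 and 8.16. Every knockout array was higher, and the spread was larger in knockout (difference 0.35, SE 0.08, interval 0.16 to 0.53, adjusted p = 0.0379), a 1.27-fold rise. Both calls ended when most single arrays were left out. Tgfb2 passed only in the fit that dropped knockout replicate 3; dropping wild-type arrays 1, 2 and 3 in turn gave adjusted p of 0.0780, 0.0940 and 0.0527, and dropping knockout arrays 1 and 2 gave 0.0612 and 0.0726, with differences of -0.27 to -0.21. Tgfb3 passed only in the fit that dropped knockout replicate 2; dropping wild-type arrays 1, 2 and 3 in turn gave 0.118, 0.0848 and 0.0991, and dropping knockout arrays 1 and 3 gave 0.0868 and 0.0875, with differences of 0.27 to 0.37.

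The Tgfb3 difference was smaller in each fit that took Ttr or Ogn into account. It was 0.22 without the arrays with Ttr above 10, 0.28 with Ttr as a covariate (adjusted p = 0.162) and 0.195 with Ogn as a covariate (0.543). For Tgfb2 the same fits gave -0.34, -0.26 and -0.29 (adjusted p = 0.0788 and 0.163 with the covariates), each larger in size than with all arrays. Tgfb1, the ligand best known from immune cells and wound repair, read 0.10 higher in knockout (interval -0.03 to 0.24, adjusted p = 0.404). Gdf11, a relative of myostatin that acts through activin receptors, differed by 0.06 (interval -0.09 to 0.20).

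The latent TGF-beta binding proteins, which anchor latent TGF-beta in the matrix, also split: of 4 genes, Ltbp2 fell, Ltbp3 rose and the other 2 did not pass. Ltbp2, the member of the family that does not bind latent TGF-beta and is found with elastic fibres, read 8.18, 8.57 and 8.33 in wild type and 7.80, 7.89 and 7.93 in knockout. All 3 knockout arrays lay below all wild-type arrays (difference -0.49, SE 0.10, interval -0.70 to -0.28, adjusted p = 0.0157), a 1.40-fold lower level. For Ltbp3, which binds and helps to secrete latent TGF-beta, wild type gave 9.43, 9.49 and 9.37 and knockout 9.62, 9.61 and 9.74. That separation was narrow, with knockout replicate 3 highest (difference 0.23, SE 0.06, interval 0.10 to 0.35, adjusted p = 0.0420), a 1.17-fold rise. Ltbp1 (-0.05, interval -0.27 to 0.16) and Ltbp4 (-0.09, interval -0.27 to 0.09) had overlapping groups.

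Leaving out single arrays separated the 2 binding proteins that were called. Ltbp2 lost its call only without knockout replicate 1 (adjusted p = 0.0576; differences of -0.58 to -0.38 over the 6 fits). It read -0.56 without the arrays with Ttr above 10, where 1 knockout array is left, -0.40 with Ttr as a covariate (adjusted p = 0.0827) and -0.62 with Ogn as a covariate (0.0872). Ltbp3 lost its call whichever of the 6 arrays was left out (adjusted p of 0.0542 to 0.141, differences of 0.19 to 0.25), and its difference was 0.145 with Ogn as a covariate (adjusted p = 0.508). It was also lost when arrays were centred on their medians (0.21, adjusted p = 0.0642).

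**Figure D3:**
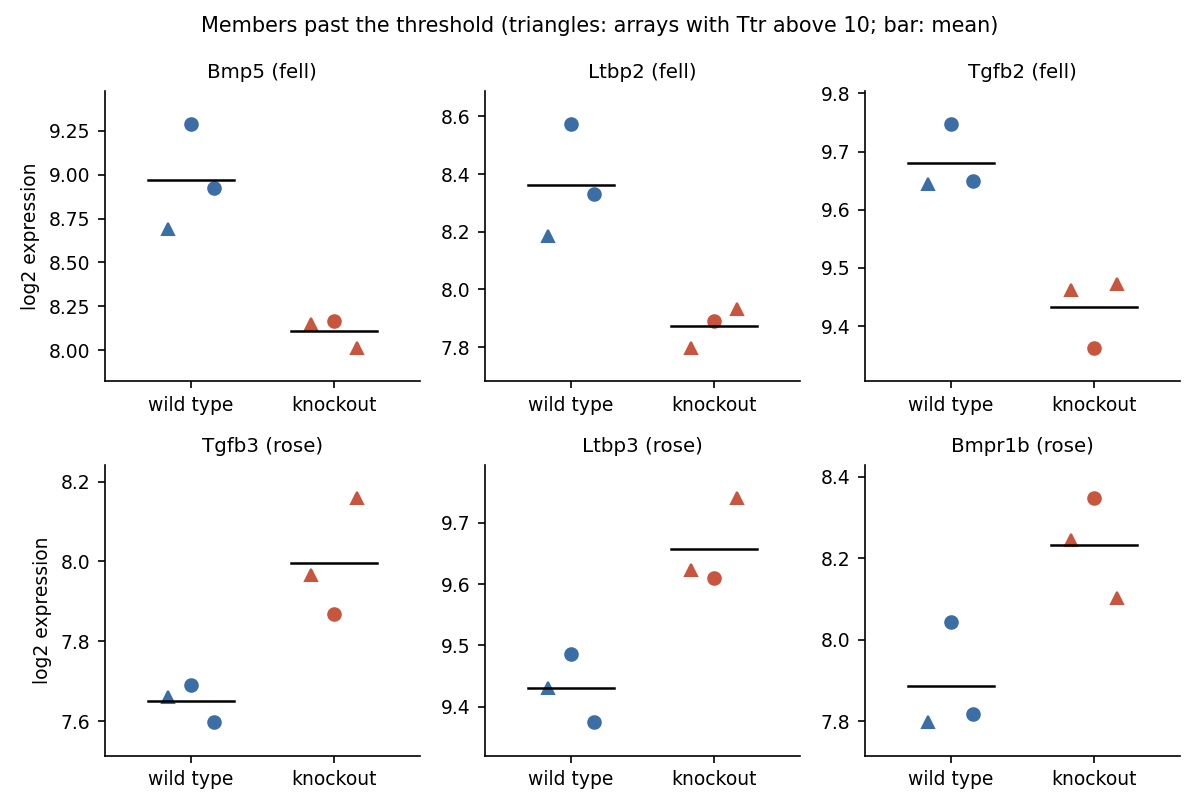
Log2 expression on each array of the 6 genes past the threshold (points, arrays; bars, group means; triangles, the 3 arrays with Ttr above 10). In each panel the 3 knockout values lie apart from the 3 wild-type values; the widest gap is that of Bmp5, between 8.69 and 8.17.

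For the 3 genes that fell and for Ltbp3, which rose, the bases before the annotated start are shown. Whether CREBBP acts at any of these stretches was not tested. Sequences are RefSeq's, build GRCm38.p6, on the gene's own strand, 5′ to 3′. Bmp5 lies at chr9:75775115-75775364 (plus strand), Tgfb2 at chr1:186705990-186706239 (minus), Ltbp2 at chr12:84876559-84876741 (minus) and Ltbp3 at chr19:5740650-5740899 (plus). Each stretch runs from 250 bases before the start to the base before it, except that of Ltbp2, which ends at position -68, just before the annotated span of the gene. The start used for Tgfb2 lies 3708 bases inside the annotated span of that gene. Capitals mark matches to 4 short motifs searched on both strands. The core of the CREB-binding site was written as TGACG. The SMAD box that SMAD3 and SMAD4 are known to bind was written as CAGAC. A GC-rich element also known to be bound by SMADs was written as GGCGCC. The TATA box, which places the transcription start, was written as TATAAA.
Bmp5: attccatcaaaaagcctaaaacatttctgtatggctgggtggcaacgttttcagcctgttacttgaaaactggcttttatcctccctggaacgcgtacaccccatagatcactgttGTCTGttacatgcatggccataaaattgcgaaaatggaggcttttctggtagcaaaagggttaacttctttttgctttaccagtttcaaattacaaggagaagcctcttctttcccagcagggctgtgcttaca
Ltbp2: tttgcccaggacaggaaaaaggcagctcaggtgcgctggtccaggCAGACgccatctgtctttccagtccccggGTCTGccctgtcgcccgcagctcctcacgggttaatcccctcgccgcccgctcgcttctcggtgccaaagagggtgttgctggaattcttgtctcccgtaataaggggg
Tgfb2: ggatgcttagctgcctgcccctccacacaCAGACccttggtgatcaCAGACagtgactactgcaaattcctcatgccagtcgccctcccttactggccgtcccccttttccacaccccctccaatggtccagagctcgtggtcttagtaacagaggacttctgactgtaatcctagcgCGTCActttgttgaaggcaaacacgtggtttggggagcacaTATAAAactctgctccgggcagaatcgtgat
Ltbp3: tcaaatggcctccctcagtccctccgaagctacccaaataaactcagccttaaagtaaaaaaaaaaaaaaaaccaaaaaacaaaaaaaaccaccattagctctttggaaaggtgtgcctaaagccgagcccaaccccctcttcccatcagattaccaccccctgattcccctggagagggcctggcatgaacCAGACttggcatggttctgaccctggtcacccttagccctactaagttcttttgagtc

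The Tgfb2 stretch held the CREB core on the opposite strand at positions -72 to -68, SMAD boxes from -221 and from -204, and a TATA box at -31 to -26. Bmp5 held 1 SMAD box (-134 to -130), Ltbp2 held 2, from -205 and from -176, and Ltbp3 held 1 (-58 to -54). No promoter sequence was matched for Tgfb3. Bmpr1b, which also rose, had 3 annotated starts, and its windows are not shown. The window of start 1 held a SMAD box (-128 to -124) and TATA matches from -242 and, on the opposite strand, from -244. That of start 2 held a SMAD box (-245 to -241), and that of start 3 held no match. Promoter sequences were matched for 30 of the 43 genes, among them 5 of the 6 called ones. Over those 250-base windows the CREB core was found in 5 of the 30 genes (16.7%: Gdf11, Ltbp1, Smad1, Smad5 and Tgfb2), against 19.8% of all 27025 genes with a window. The full CREB site TGACGTCA, which contains that core, was found in Ltbp1 alone (3.33%, against 1.77% of all genes). SMAD boxes were found in 15 of 30 (against 45.8% of all genes), the TATA box in 3 (against 14.3%) and GGCGCC in 10 (33.3%, against 10.8%). The 10 genes with GGCGCC were Bmpr1a, Bmpr2, Chrd, Grem1, Ltbp4, Ski, Smad5, Smad9, Smurf2 and Tgfbr1, none of them called. The members were chosen by name, only 30 of the 43 had a window, and base composition was not matched. None of these shares can therefore be read as an unbiased excess. These matches describe letters in a window and say nothing of binding.

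Of the 10 receptors, Bmpr1b rose, 0 fell and 9 did not pass. Bmpr1b encodes ALK6, a type I receptor for BMPs and GDFs. It read 7.80, 8.04 and 7.82 in wild type and 8.25, 8.35 and 8.10 in knockout. The groups nearly touched, with wild-type replicate 2 just below knockout replicate 3 (difference 0.35, SE 0.09, interval 0.15 to 0.54, adjusted p = 0.0481), a 1.27-fold rise. Dropping wild-type arrays 1 and 3 in turn gave adjusted p of 0.179 and 0.127, and dropping knockout arrays 1 and 2 gave 0.126 and 0.125 (differences of 0.29 to 0.34), and the gene also missed the threshold after median centring (0.33, adjusted p = 0.0714) and repeated quantile normalization (0.32, adjusted p = 0.0603). The Bmpr1b difference was 0.45 with Ttr as a covariate (adjusted p = 0.0361) and 0.45 with Ogn (0.186), where the groups do not overlap in Ogn. Bmpr1a, the other BMP type I receptor gene, differed by 0.003 with an interval of -0.12 to 0.12. Whether the 2 receptor genes differed in response was not tested.

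Of the activin-type receptor genes 0 of 4 passed. Acvr2a, a type II receptor for activins and BMPs, read 10.16, 10.16 and 10.06 in wild type and 9.94, 9.99 and 9.97 in knockout (difference -0.16, SE 0.05, adjusted p = 0.0777). Acvr1, the type I receptor ALK2, gave 9.004, 9.02 and 8.88 against 8.80, 8.79 and 8.79, with very little spread in knockout (difference -0.18, SE 0.06, adjusted p = 0.103). Neither pair of groups overlapped, and Acvr2a passed when arrays were weighted by quality. Tgfbr1, the TGF-beta type I receptor ALK5, read 8.89, 8.89 and 8.88 in wild type and 9.04, 9.05 and 8.94 in knockout, likewise without overlap (difference 0.13, adjusted p = 0.235). Acvr2a and Acvr1 came nearest to the threshold among the receptors that missed it. For Acvr1b (-0.06), Acvr2b (-0.11), Bmpr2 (-0.04), Tgfbr2 (-0.05) and the co-receptor betaglycan, Tgfbr3 (0.06), the groups overlapped. The sign for Tgfbr3 turned without the arrays with Ttr above 10 (-0.16) and with either covariate (-0.03 with Ttr, -0.12 with Ogn), and without knockout replicate 3 (-0.03). Acvr1b turned as well, to 0.02 without the arrays with Ttr above 10, 0.09 with Ogn as a covariate and 0.01 without knockout replicate 3, and Acvr2b turned to 0.09 with Ogn as a covariate.

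Of the 8 SMAD genes 0 passed the limma test, and 1, Smad1, had an unadjusted p under 0.05 (0.00479). Smad1, a carrier of BMP signals, read 9.36, 9.28 and 9.24 in wild type and 9.12, 9.11 and 8.89 in knockout. The groups were separate, and knockout replicate 3 was lowest (difference -0.26, SE 0.07, interval -0.41 to -0.10, adjusted p = 0.0619). Smad1 fell by the test after repeated quantile normalization and with the replicate number as a block, but its difference was -0.18 without knockout replicate 3 (adjusted p = 0.122), -0.16 without the arrays with Ttr above 10 and -0.07 with Ogn as a covariate (0.770). The other BMP-side genes, Smad5 (-0.08) and Smad9 (0.03), and the TGF-beta-side genes, Smad2 (-0.03) and Smad3 (0.06), had overlapping groups. Smad4, the partner shared by both branches, read 11.12, 11.11 and 11.15 in wild type and 11.12, 11.11 and 11.10 in knockout, and its interval, -0.11 to 0.07, was the narrowest of the 43. The inhibitory SMAD genes, which these pathways induce as feedback, differed by -0.03 (Smad6, interval -0.27 to 0.21) and -0.13 (Smad7, interval -0.33 to 0.08).

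The secreted antagonists and the inhibitors at the membrane and in the cell gave 0 calls among 10 genes, where 1, Smurf1, had an unadjusted p under 0.05. The BMP antagonists Nog (-0.12, interval -0.31 to 0.07), Chrd (-0.11, interval -0.26 to 0.05) and Grem1 (0.01, interval -0.17 to 0.19) and the activin antagonist Fst (-0.05, interval -0.22 to 0.11) had overlapping groups. Fstl1, a secreted follistatin-like protein, read 9.61, 9.69 and 9.52 in wild type and 9.70, 9.69 and 9.82 in knockout, values that almost meet (difference 0.13, adjusted p = 0.279). The ubiquitin ligases Smurf1 and Smurf2, which mark SMADs and receptors for degradation, had differences of opposite sign. Smurf1 gave 9.82, 9.87 and 9.81 against 9.72, 9.78 and 9.54 (difference -0.15, adjusted p = 0.223). Smurf2 gave 10.50, 10.47 and 10.47 against 10.52, 10.60 and 10.59 (difference 0.09, adjusted p = 0.289). In both the groups were separate but close, and the Smurf1 difference was -0.01 with Ogn as a covariate. The pseudoreceptor Bambi (-0.05) and the SMAD corepressors Ski (-0.09) and Skil (-0.04) had overlapping groups.

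Over the 37 genes that did not pass, differences ran from -0.26 to 0.32, with 23 below and 14 above 0. For 30 of these 37 the 95% interval lay wholly within 0.3 of 0, so a change larger than that lies outside it. A p that misses the threshold does not show that a gene did not differ. Knockout replicate 3 held the highest or the lowest value of the 6 arrays in 22 of the 43 genes (51.2%, against 40.4% of all genes), more than any other array. The sign was kept by 37 of 43 without the arrays with Ttr above 10, 41 with Ttr as a covariate, 33 with Ogn as a covariate and 39 without knockout replicate 3. The 6 called genes kept theirs with either covariate; where arrays are left out, groups that do not overlap fix the sign. The largest move was that of Bmp7 with Ogn as a covariate, by 0.30.

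**Figure D4:**
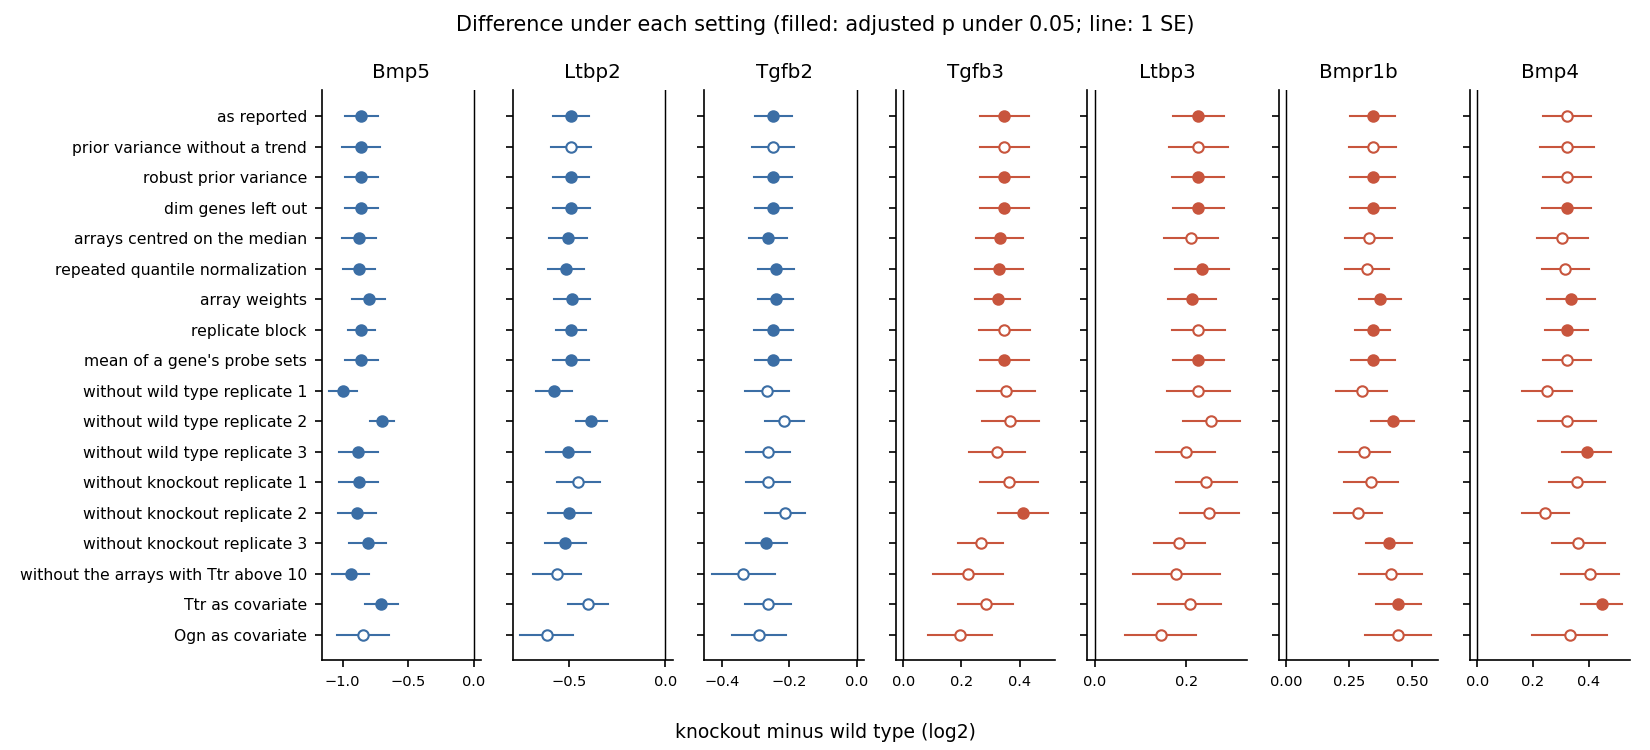
Difference between knockout and wild type (log2, with 1 SE) of the 6 called genes and Bmp4 in the reported fit and under 17 other settings (filled, adjusted p under 0.05; open, not past it). The fit without the arrays with Ttr above 10 holds 1 knockout array, so its fill bears on no call. That fit aside, Bmp5 is filled in all settings but the Ogn covariate, and Ltbp3 is open whenever an array is left out.

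Outside the 43, a list of 84 further pathway genes, also chosen with earlier results of these data known, gave 75 that were tested. Of these 4 rose, 3 fell and 68 did not pass, where 6.67% of all genes were called (2.72% rose, 3.94% fell). The median difference was -0.01, and 28 of the 75 had groups that did not overlap, against 25% of all genes. Among 12 target genes 2 rose and 0 fell, numbers too small to set against those shares. Id3, a BMP target that blocks bHLH transcription factors, read 9.14, 9.08 and 9.22 in wild type and 9.36, 9.48 and 9.39 in knockout (difference 0.26, SE 0.06, adjusted p = 0.0263). Hey1, a repressor induced by Notch and also by BMPs, gave 11.36, 11.33 and 11.27 against 11.64, 11.60 and 11.51 (difference 0.27, SE 0.05, adjusted p = 0.0125). Both were higher on all 3 knockout arrays. Id1, a close relative of Id3 and a BMP target as well, lay at 8.72, 8.67 and 8.80 in wild type and at 8.93, 8.91 and 8.94 in knockout (difference 0.196, adjusted p = 0.0686). Id4 differed by 0.12 (adjusted p = 0.310) and Id2 by -0.11 (adjusted p = 0.210), both without overlap, so the 4 differences did not share a sign.

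The remaining calls were spread over the other classes. Nedd4l, a ubiquitin ligase that limits SMAD2 and SMAD3 signalling, fell from a mean of 11.43 to 11.12 (difference -0.31, SE 0.05, adjusted p = 0.00459) and passed whichever array was left out. Neo1, the neogenin receptor, which binds repulsive guidance molecules that act as BMP co-receptors, fell from 11.89 to 11.63 (difference -0.26, adjusted p = 0.0145). Nbl1, a secreted BMP antagonist, rose from 8.27 to 8.63 (difference 0.36, adjusted p = 0.0163). Gdf10, a ligand that marks Bergmann glia in the cerebellum, rose from 11.28 to 11.48 (difference 0.198, adjusted p = 0.0414). Fstl4, a follistatin-like gene, fell from 9.12 to 8.90 (difference -0.23, adjusted p = 0.0407). Single arrays ended most of these calls: without wild-type replicate 1, Id3, Neo1, Nbl1, Gdf10 and Fstl4 had adjusted p of 0.103, 0.0839, 0.0599, 0.147 and 0.108. Hey1 was lost without knockout replicate 1 (0.0514), Neo1 also without wild-type replicate 2 (0.0513), and Id3 also without wild-type replicate 2 or knockout replicate 1 or 2 (0.0911, 0.0508 and 0.0722). Gdf10 held only without wild-type replicate 2 or knockout replicate 3, and Fstl4 in none of the 6 fits. Without the arrays with Ttr above 10, where 1 knockout array is left, the differences of these 7 genes ran from -0.28 to 0.33. Of the Bergmann glia and astrocyte markers, 2 of 6, Gdf10 itself and Gfap, rose, and the mean of the list was 11.49 to 11.53 in wild type and 11.61 to 11.73 in knockout; its part in these differences was not tested.

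**Figure D5:**
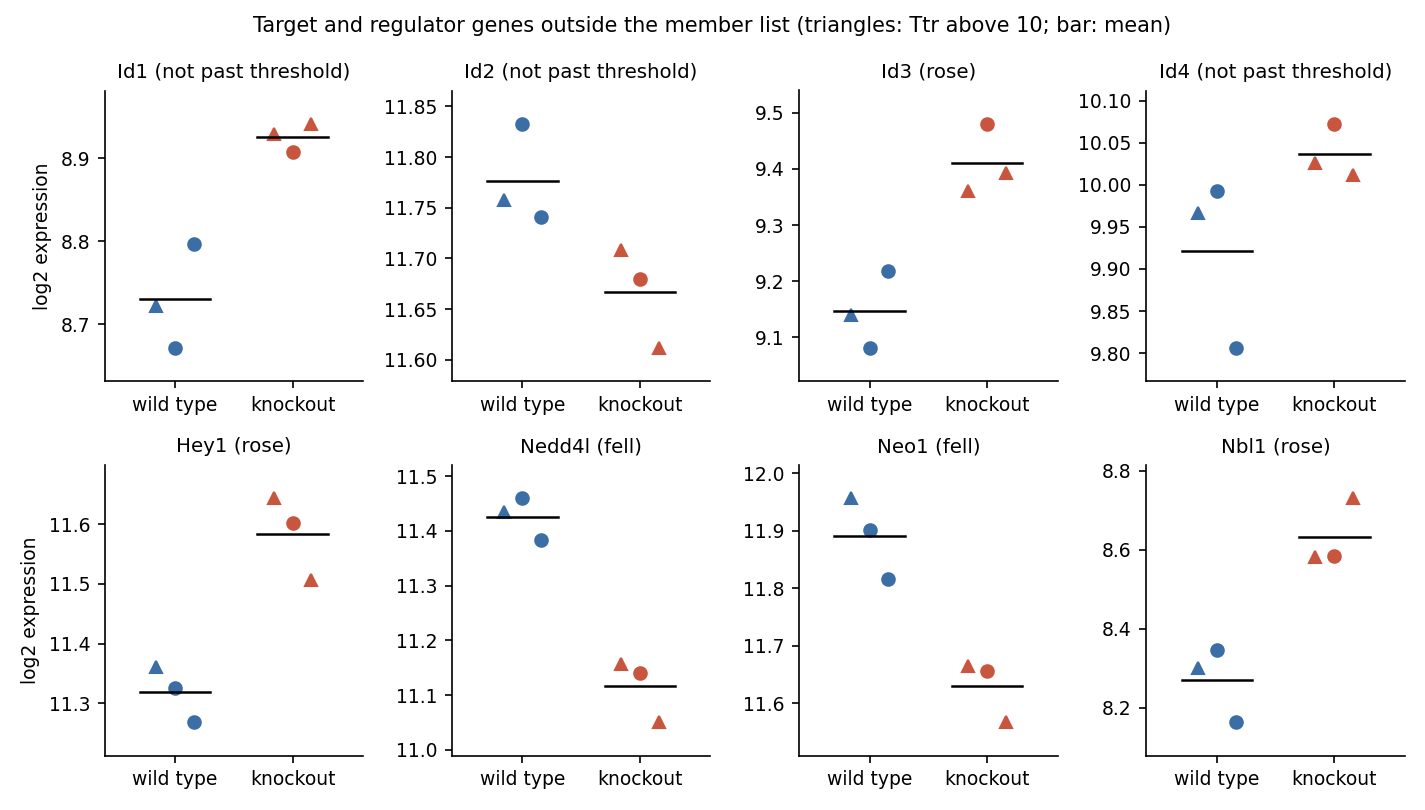
Log2 expression on each array of the 4 Id genes, Hey1, Nedd4l, Neo1 and Nbl1 (points, arrays; bars, group means; triangles, the 3 arrays with Ttr above 10). Id3 and Hey1 lie higher on every knockout array, Id2 lies lower (difference -0.11) and did not pass.

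The BMP antagonist Sostdc1, chosen for mention after its values were seen, had the widest spread within the knockout group of the pathway genes named here. It read 7.46, 7.00 and 6.93 in wild type and 9.45, 7.22 and 10.03 in knockout, with its 3 highest values on the 3 arrays with Ttr above 10 (difference 1.77, SE 0.56, adjusted p = 0.0970).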

How the data were processed

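RNA was measured on 6 arrays, 3 per group. The authors deposited log2 expression values per probe set, made with RMA and oligo per the submitters' processing notes; the sources used here do not give versions, the annotation build or filters. The deposited values were used unchanged. Of 41345 probe sets, 23521 carried 1 symbol in GEO's platform annotation, 1814 several and 16010 none; only the first kind was used, keeping a gene's brightest on average. Bmpr2 and Ltbp2 each appear also in a probe set with several symbols, which was not used. Knockout was set against wild type by limma 3.58.1 (R 4.3.3; lmFit, then eBayes with a trended prior), two-sided, with Benjamini-Hochberg adjustment over 22180 genes and a threshold of 0.05. The fit was tested on simulated data. The members and lists were chosen with earlier results of these data known. Values on every array were given for members past the threshold and for the 10 others with the smallest p. Among other pathway genes, those past the threshold (at most 12) and Id1 to Id4 are named. The 17 alternatives refit the data with another prior (without a trend, robust), without dim genes (mean under 6.02, the 25th percentile), with median centring, repeated quantile normalization, array weights, a replicate block, gene means over probe sets, each array left out, the arrays with Ttr above 10 left out, and Ttr or Ogn as a covariate; thresholds of 0.10 and 0.01 were also tried. With 3 arrays per group, their number limits the precision. Plots were drawn with matplotlib 3.10.9.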

Additional observations from a re-analysis of the deposited data

How the results depend on the processing

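The 16 members whose values are given by array as the rule asks have groups that do not overlap, which fixes their sign when arrays are left out; with Ttr or Ogn as a covariate each kept its sign. The counts without the arrays with Ttr above 10 come from a fit with 1 knockout array, assumed to vary like the wild type, and bear on no call. The count of members that rose (3) was 0 with a prior without a trend, 1 after median centring, 0 without the arrays with Ttr above 10, 0 with Ogn as a covariate and 0 at a threshold of 0.01. The count that fell (3) was 1 with a prior without a trend, 1 without the arrays with Ttr above 10, 1 with Ttr as a covariate, 0 with Ogn as a covariate, 5 at a threshold of 0.10 and 1 at 0.01. With 1 array left out, 0 to 1 rose and 1 to 3 fell. Counts over all genes were also lower with 1 array left out or with a covariate. In the reported fit 604 rose and 875 fell, against 317 and 374 with Ttr as a covariate and 79 and 133 with Ogn. Those fits have fewer residual degrees of freedom, and the Ogn values of the groups do not overlap. The part of either in the lower counts was not tested. The members' median difference (-0.04) was -0.0153 without the arrays with Ttr above 10 and -0.0120 with Ogn as a covariate, and ran from -0.0533 to -0.0161 with 1 array left out, the latter without knockout replicate 3. Among the other pathway genes, the number that rose (4) was 0 with a prior without a trend, 0 without the arrays with Ttr above 10, 0 with Ttr as a covariate, 1 with Ogn as a covariate, 7 at 0.10 and 0 at 0.01. The number that fell (3) was 1 with a prior without a trend, 5 without dim genes, 6 with the replicate block, 0 without the arrays with Ttr above 10, 1 with Ttr as a covariate, 0 with Ogn as a covariate, 5 at 0.10 and 1 at 0.01. With 1 array left out, 1 to 5 of these rose and 1 to 3 fell. With the replicate number as a block, 2 members rose (Bmp4 and Bmpr1b) and 4 fell (Bmp5, Ltbp2, Smad1 and Tgfb2). In that fit Tgfb3 and Ltbp3 had adjusted p of 0.0506 and 0.0543, and over all genes 723 rose and 1078 fell. The deviations of same-numbered arrays correlated at 0.01, 0.03 and -0.13. Such values cannot show whether same-numbered arrays were paired, and the labels give only a number. Centring moved the median of all genes to -0.02. Where no cause is given, the cause was not tested. Without detection calls, no limit can be set for dim genes.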
